A study of Mus musculus with 2 samples.

Results

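Ins1, Ins2 and Iapp encode the main secreted peptides of the pancreatic β-cell. Mice carry a pair of insulin genes, the ancestral Ins2 and the retrotransposed copy Ins1, and both proinsulins are cut to insulin by the convertases Pcsk1 and Pcsk2. Iapp encodes islet amyloid polypeptide (amylin), which is processed and stored in the same granules as insulin and released with it, and δ-cells, which secrete somatostatin (Sst), also make it in mice. The 3 genes were chosen by symbol, out of 22383 features in the deposited matrices.

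Pancreatic islets of mice aged 5 weeks were profiled by single-cell RNA sequencing, with 1 library per group, each from 150 islets pooled from 4 mice. The control library is labelled wildtype and came from Cre-negative littermates. The other library is labelled TBL/RβKO (TBL/RBKO in the labels) and came from mice with floxed Tbl1x and Tbl1xr1, genes of transcriptional co-factors, and Cre recombinase inserted at the endogenous Ins1 locus to act in β-cells. Mice of both groups were on a C57BL/6N background, and their islets were cultured overnight before they were separated into cells. Since Cre sits at Ins1 in one group alone, an effect of the Cre allele on Ins1 and an effect of the deletion cannot be told apart. No replicates stand behind any value, so no test was made, and the 95% intervals given in brackets (exact Poisson for levels, exact conditional binomial for log2 ratios, Clopper-Pearson for shares) cover counting error only. 

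Values are UMIs, molecular tags that each mark 1 captured transcript at its 3′ end whatever its length, so that levels of the genes are compared per transcript. CPM is the number per 1000000 UMIs of a sum of barcodes. The control library held 7067 barcodes with 241434108 UMIs and the TBL/RβKO-labelled library 5833 barcodes with 185062206 UMIs. Barcodes with more than 2500 detected genes and under 10% mitochondrial UMIs were kept, which left 4747 control barcodes and 4179 of the other library. A barcode took the class of its largest hormone among insulin (Ins1 plus Ins2), Gcg, Sst and Ppy, at 100 or more UMIs per 10000. The insulin class held 2877 control barcodes (60.6% of those kept) and 1338 of the TBL/RβKO-labelled library (32.0%). The other classes held 1284 and 1546 barcodes for Gcg, 223 and 374 for Sst and 259 and 495 for Ppy, and 104 and 426 barcodes had no class. Barcodes with 50 or more UMIs per 10000 of 19 immune, vascular, stromal and ductal markers, whatever their class, are called non-endocrine (131 and 207). All 8 β-cell markers exceeded 10 CPM in the insulin class of both libraries, with a summed level of 3076 and 1293 CPM, while the 5 acinar markers summed to 0.0549 and 0.357 CPM. Both targeted genes went against the label in the insulin class, Tbl1x at 96.9 and 351 CPM and Tbl1xr1 at 20.0 and 129 CPM in the control and the TBL/RβKO-labelled library, and 3′ counts cannot tell an intact transcript from one that lacks the floxed part. The libraries shared 14 barcode sequences, of which 12 were kept in both and 2 were in the insulin class of both.

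Ins1 (ENSMUSG00000035804) lies on chromosome 19 from 52252735 to 52253914 on the plus strand of GRCm39, with 1 annotated transcript of 2 exons. Ins2 (ENSMUSG00000000215) lies on chromosome 7 from 142232393 to 142297118 on the minus strand, a span that covers 14 transcripts, of which the first listed has 3 exons. Iapp (ENSMUSG00000041681) lies on chromosome 6 from 142244149 to 142249688 on the plus strand, with 2 transcripts, and lies within the span of Slco1a5 on the opposite strand. The transcripts of the insulin genes are similar: 50 of 1033 windows of 30 bases in Ins1 (4.84%) also occur in Ins2, as do 7 of 1013 windows of 50 bases (0.691%) and 0 of 973 windows of 90 bases. Reads within shared stretches could be left out or assigned to either gene, so the split between Ins1 and Ins2 carries that uncertainty. Iapp shares 0 of 946 windows of 30 bases with either insulin gene.

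The 250 bases before the annotated start sites of Ins1 and Iapp (RefSeq, GRCm38.p6, plus strand, chr19:52264047-52264296 and chr6:142298175-142298424) are printed. They show where short motifs of factor families described further on occur in these windows. Whether the annotated sites are those used in β-cells was not tested, so a window may miss bases close to the start in use. Capitals mark TAAT, a core motif of homeodomain proteins such as Pdx1 and Nkx6-1, and CATCTG, an E box motif of the family of Neurod1, each on either strand.
Ins1: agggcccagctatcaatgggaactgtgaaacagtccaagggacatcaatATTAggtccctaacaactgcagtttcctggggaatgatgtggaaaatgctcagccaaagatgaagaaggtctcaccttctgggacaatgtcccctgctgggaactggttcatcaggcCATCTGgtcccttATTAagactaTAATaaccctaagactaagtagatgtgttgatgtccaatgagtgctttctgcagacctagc
Iapp: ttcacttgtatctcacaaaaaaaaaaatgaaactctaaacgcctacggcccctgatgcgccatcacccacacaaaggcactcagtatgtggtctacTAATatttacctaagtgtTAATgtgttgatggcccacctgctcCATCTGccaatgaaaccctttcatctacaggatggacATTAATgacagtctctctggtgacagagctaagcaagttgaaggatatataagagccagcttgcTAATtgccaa
The Ins1 window held 3 TAAT and 1 CATCTG, and the Iapp window 5 TAAT, of which 2 overlap on opposite strands, and 1 CATCTG. Neither window held TGCTGA, a core motif of Maf proteins. Of 32851 promoter windows, 54.9% held TAAT, 14.4% CATCTG and 16.1% TGCTGA, so such matches are frequent. The counts hold for the printed windows only, not for the promoters as a whole.

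In the insulin class, the level of Ins1 was far lower in the TBL/RβKO-labelled library, that of Ins2 was moderately lower and that of Iapp was close to the control. The rule for the class used Ins1 plus Ins2, so these levels are a description, while the split between the insulin genes and the level of Iapp were not used by it. Ins1 stood at 136461 CPM (136408 to 136515) in the control and at 35988 CPM (35951 to 36025) for the TBL/RβKO-labelled library. The log2 ratio was -1.92, or 3.79-fold lower. Ins2 stood at 359318 CPM (359231 to 359405) in the control and 242625 CPM (242529 to 242721) in the other, with a log2 ratio of -0.57, or 1.48-fold lower. Iapp stood at 44921 CPM (44890 to 44952) in the control and 47555 CPM (47513 to 47598) in the other, with a log2 ratio of 0.08. The order of the levels was Ins2, Ins1, Iapp in the control and Ins2, Iapp, Ins1 in the TBL/RβKO-labelled library, with no overlap between neighbouring intervals.

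**Figure D1:**
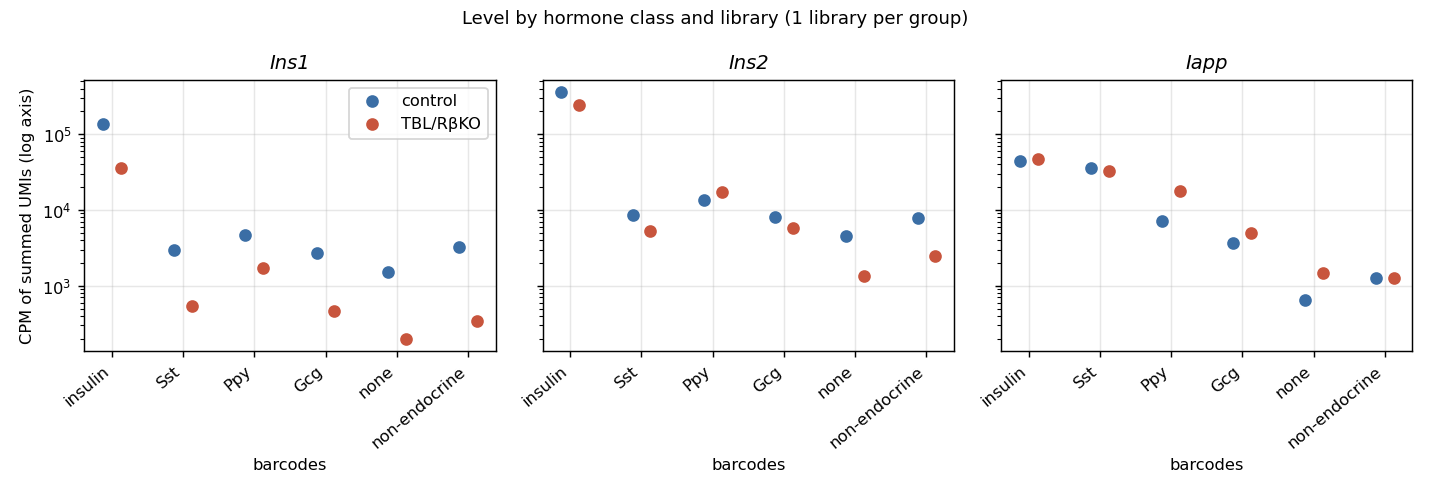
Levels of Ins1, Ins2 and Iapp (CPM of summed UMIs, log axis) in each hormone class, in barcodes of no class and in non-endocrine barcodes, with 1 point per library. In the insulin class Ins1 stood at 136461 CPM in the control and 35988 CPM in the TBL/RβKO-labelled library, while Iapp stood at 44921 and 47555 CPM, and in the Sst class at 35734 and 32951 CPM.

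Ins1 was thus 1 of 3 members below the 2-fold limit (a log2 ratio of -1 or less), where 1.25% of the 7918 genes at 10 CPM or more in either library lay below it and 8.27% lay above the opposite limit. The scale matters here, because the insulin genes took 49.6% of the control UMIs in this class. The median log2 ratio of all 7918 genes was 0.31, and it became -0.21 when hormones and mitochondrial genes were left out of the total. On that second scale Ins1 had -2.44 (5.44-fold lower), Ins2 -1.09 (2.12-fold lower) and Iapp -0.44, beside 3.44% of all genes below the limit and 3.2% above the opposite one. Relative to the median gene, Ins1 stood at -2.24, Ins2 at -0.88 and Iapp at -0.23. The direction of Iapp therefore depended on the scale, and no direction is given for it in this class.

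Counted per barcode, without any scaling, a control barcode of the insulin class held a median of 7512 Ins1 UMIs (quartiles 5189 and 10953), and a barcode of the TBL/RβKO-labelled library 1572.5 (502.5 and 3993). The median of Ins2 was 19380 UMIs in control barcodes and 13479 in the others, and that of Iapp was 2316 and 2748 UMIs. Barcodes of the TBL/RβKO-labelled library were richer in other transcripts, with a median of 45209.5 UMIs outside the members against 23202. In all they held a median of 67897 UMIs against 53346. For Iapp the quartiles overlapped widely (1531 to 3516 and 1515 to 4847 UMIs), whereas the upper quartile of Ins1 in the TBL/RβKO-labelled library lay below the lower quartile of the control.

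The level of insulin transcripts was narrow in control barcodes and broad in the TBL/RβKO-labelled library. Ins1 and Ins2 together made up a median of 5089 UMIs per 10000 in a control barcode of the insulin class (quartiles 4263 and 5662) and 2365 in the other library (1212 and 3945). Of the control barcodes 79.5% (77.9% to 80.9%) held 4000 or more, against 24.1% (21.9% to 26.5%) in the TBL/RβKO-labelled library. Below 1000 lay 5.67% of control barcodes (4.85% to 6.57%) and 18.2% (16.1% to 20.3%) of those of the other library. The control barcodes with little insulin were mostly at the lower limit of the class. Of the 132 control barcodes between 100 and 300 insulin UMIs per 10000, 41 carried non-endocrine markers, at a median of 9262 UMIs in all. The TBL/RβKO-labelled library had 27 barcodes in that range, 2 of them with such markers, and 216 between 300 and 1000, where the control had 31. Just outside the class limit, at 50 to 100, were 79 control barcodes (62 with non-endocrine markers) and 21 of the TBL/RβKO-labelled library (8), and just inside, at 100 to 150, were 51 (28) and 11 (2).

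**Figure D2:**
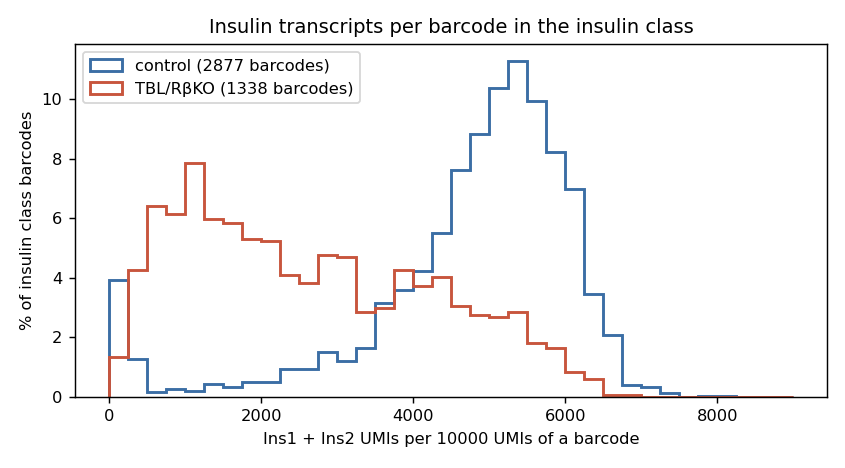
Share of insulin class barcodes (%) by their Ins1 plus Ins2 UMIs per 10000 UMIs, 1 line per library. Control barcodes gather around a median of 5089, and those of the TBL/RβKO-labelled library spread over the whole range with a median of 2365.

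The split between the insulin genes shifted towards Ins2. Ins1 made up 27.5% of insulin UMIs in the control insulin class and 12.9% in that of the TBL/RβKO-labelled library, so that 2.63 Ins2 UMIs were counted per Ins1 UMI in control barcodes and 6.74 in the others. Per barcode, the Ins1 share had a median of 27.7% (quartiles 25.5% and 29.8%) in the control and 11.6% (7.03% and 15.0%) in the TBL/RβKO-labelled library. The 95th percentile in the latter, 19.8%, lay below the 5th percentile of the control, 21.9%. 

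In the control the share hardly moved with the insulin level, and in the TBL/RβKO-labelled library it was lower where insulin was lower. From 1000 insulin UMIs per 10000 upwards, the control share lay between 27.2% and 27.6% in every bin. In the TBL/RβKO-labelled library it was 7.56% at 300 to 1000, 8.99% at 1000 to 2000, 11.9% at 2000 to 4000, 15.0% at 4000 to 6000 and 17.6% at 6000 and over, where 21 barcodes stood. Over barcodes without non-endocrine markers, Spearman's rho between the share and the insulin level was -0.017 in the control (2833 barcodes) and 0.49 in the TBL/RβKO-labelled library (1335 barcodes), a description in which both quantities hold the same Ins1 counts. 

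**Figure D3:**
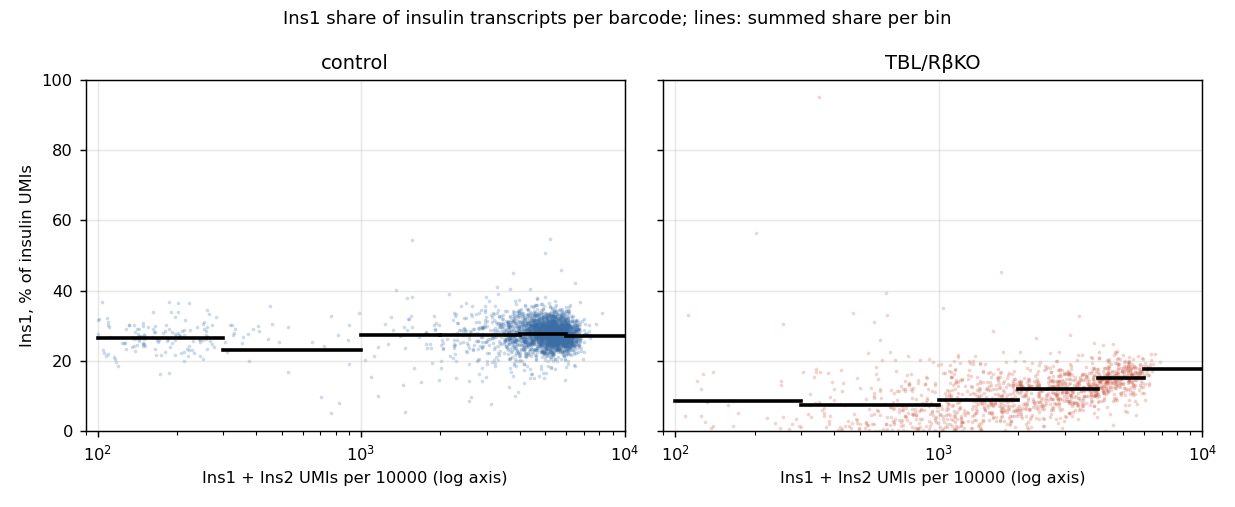
Ins1 share of insulin UMIs (%) against Ins1 plus Ins2 UMIs per 10000 (log axis) in each barcode of the insulin class, 1 panel per library, with black lines for the summed share in each of 6 bins. Control bins lie between 23.1% and 27.6%, and those of the TBL/RβKO-labelled library stand at 8.44% in the lowest bin and rise from 7.56% in the next to 17.6% in the highest.

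The members were therefore also set side by side at equal Ins2, an arrangement chosen after the data had been seen. Barcodes without non-endocrine markers were binned by Ins2 UMIs per 10000 UMIs outside the insulin genes. At 8000 and over, Ins2 was alike by construction (10193 in the control and 10191 in the TBL/RβKO-labelled library), and Ins1 stood at 3784 and 1864. At 4000 to 8000 Ins1 stood at 2430 and 900, and at 1000 to 2000 at 580 and 147. Ins1 was thus lower in the TBL/RβKO-labelled library in these bins, and it was lower in all 6 bins, though in the lowest, at 100 to 300, Ins2 itself was unequal (159 and 236). Iapp was close in the same bins, with 1151 and 1147 per 10000 at 8000 and over, 821 and 864 at 4000 to 8000 and 417 and 524 at 1000 to 2000. In the lowest bin Iapp stood at 53.2 per 10000 in 94 control barcodes and at 260 in 26 barcodes of the TBL/RβKO-labelled library. All barcodes with 4000 or more insulin UMIs per 10000 (2286 and 323) were also taken, a lower limit that does not make insulin equal. Of them 385 and 21 stood at 6000 and over. The log2 ratio of Ins1 was -0.98, just short of the 2-fold limit, that of Ins2 0.11 and that of Iapp 0.18.

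**Figure D4:**
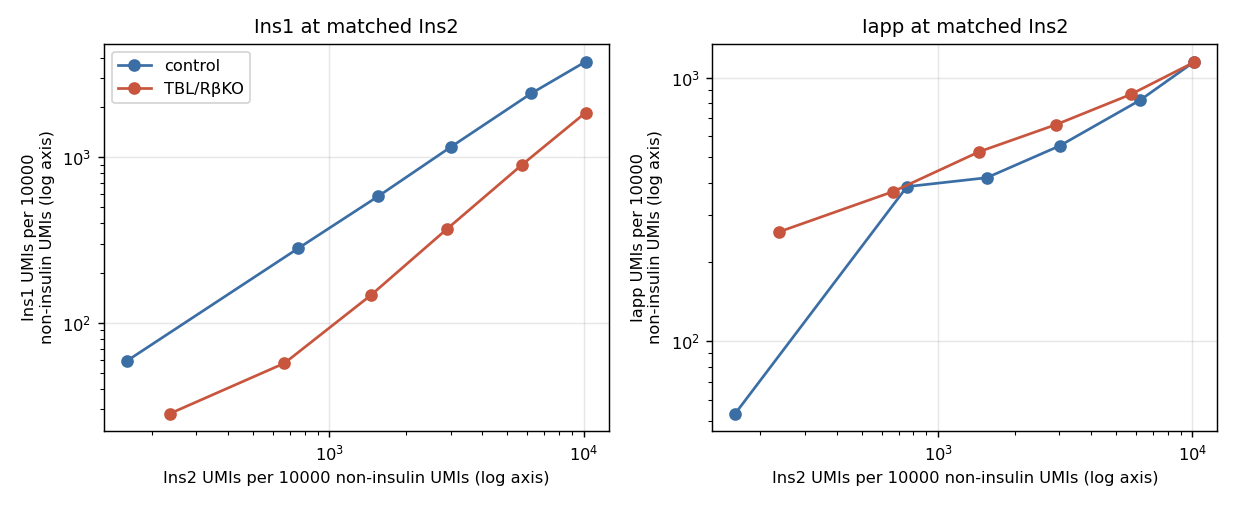
Ins1 (left) and Iapp (right) per 10000 UMIs outside the insulin genes against Ins2 on the same scale (log axes), with 1 point per bin of Ins2 and library. The Ins1 line of the TBL/RβKO-labelled library runs below that of the control, at 1864 against 3784 in the top bin, and the Iapp lines meet at 1147 and 1151.

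Relative to insulin, Iapp was higher in the TBL/RβKO-labelled library. In the insulin class 90.6 Iapp UMIs were counted per 1000 insulin UMIs in control barcodes (90.5 to 90.7) and 171 in the others (170.5 to 170.9). The denominator is what the class rule used, and the pair was 86.2 and 120 with barcodes of a single hormone and 86.4 and 106.5 with those at 4000 or more insulin UMIs per 10000. Across barcodes Iapp followed Ins2 with a Pearson r of 0.92 in the control and 0.62 in the TBL/RβKO-labelled library, and Ins1 followed Ins2 with 0.98 and 0.86. In ranks the libraries were close for Ins1 and Ins2, with a Spearman's rho of 0.92 and 0.91. For Iapp and Ins2 rho was 0.79 and 0.64. These are correlations of levels per UMI within 1 library, over 2833 and 1335 barcodes, and the barcodes share depth and free RNA.

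Of the 3 hormones Gcg, Sst and Ppy in the insulin class, Ppy differed most. Its log2 ratio was 2.40, or 1.88 without hormones and mitochondrial genes in the total. Gcg had 0.46 and Sst 0.83 in CPM, and on the second scale -0.06 and 0.31. The marker sums that follow are in CPM, a scale on which the median gene had 0.31. The 3 PP-cell markers, all above 10 CPM in both libraries, summed to 7615 CPM in the control insulin class and to 52917 CPM in that of the TBL/RβKO-labelled library. Of these markers Pyy had the largest log2 ratio (3.11), followed by Ppy (2.40) and Etv1 (1.29). The summed α-cell markers were 5831 and 9111 CPM (3 of 6 above 10 CPM in both) and the δ-cell markers 2998 and 5256 CPM (2 and 3 of 4), and no marker of these lists was at 0. Barcodes with Gcg, Sst and Ppy each below 100 UMIs per 10000 (2409 and 525) were also taken alone. In them the log2 ratio of Ins1 was -1.32, that of Ins2 -0.16 and that of Iapp 0.07. The Ins1 share was then 27.7% in the control and 14.7% in the TBL/RβKO-labelled library.

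Iapp was abundant in the Sst class as well, in both libraries. It stood there at 35734 CPM (35574 to 35895) in the control and 32951 CPM (32841 to 33062) in the TBL/RβKO-labelled library, with a log2 ratio of -0.12 (-0.13 to -0.11). Per UMI outside the members this was 29.1 and 27.4 times the level in non-endocrine barcodes, which carry it as free RNA, and 100% and 99.7% of Sst class barcodes lay above the 95th percentile of non-endocrine ones. Iapp of the Sst class was therefore 3114 and 5689 UMIs per 1000 insulin UMIs. In the control Sst class that insulin lay near free RNA, with Ins1 at 0.932 and Ins2 at 1.13 times the non-endocrine level. Ins2 of non-endocrine barcodes itself stood at 7817 CPM in the control and 2461 CPM in the TBL/RβKO-labelled library. The pair is therefore not read as a difference in Iapp.

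In the Ppy class Iapp lay above the 2-fold limit, at 7098 CPM (7049 to 7148) in the control and 17547 CPM (17490 to 17603) in the TBL/RβKO-labelled library, with a log2 ratio of 1.31 (1.29 to 1.32). Of the genes tested in that class 7.13% lay above that limit, and with barcodes under 6000 genes only the log2 ratio of Iapp was 0.89, no longer past it. Iapp exceeded the 95th percentile of non-endocrine barcodes in 43.2% of control Ppy class barcodes and in 66.7% of those of the other library. Ins1 had a log2 ratio of -1.47, beside 0.474% of genes below the limit, or -0.14 with free RNA subtracted. Ins2 had 0.34 (0.34 to 0.35) in the summed UMIs. The Ins2 sum rested on a minority of barcodes: the median barcode held 180 Ins2 UMIs in the control and 51 in the TBL/RβKO-labelled library, with upper quartiles of 267.5 and 656. Medians of Ins2 per UMI gave a log2 ratio of -1.64, the opposite direction. In 156 of 495 barcodes (31.5%) of the TBL/RβKO-labelled library and in 63 of 259 (24.3%) of the control, insulin reached 100 UMIs per 10000 beside the larger Ppy. Non-endocrine barcodes held a median of 78.1 insulin UMIs per 10000 in the control (95th percentile 186) and 13.8 (52.0) in the TBL/RβKO-labelled library. Free RNA alone could thus pass the limit in control barcodes, so these shares cannot be compared as rates of barcodes with both hormones.

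In the Gcg class, which glucagon defines, the members were low, and in the control both insulin genes lay near the level of free RNA. Control Ins1 stood at 2731 CPM and Ins2 at 7967 CPM, 0.839 and 1.02 times the level in non-endocrine barcodes per UMI outside the members. In the TBL/RβKO-labelled library they stood at 471 and 5755 CPM, log2 ratios of -2.54 and -0.47, while the same ratios in non-endocrine barcodes, which should lack insulin, were -3.25 and -1.67. Their levels there were 1.39 and 2.35 times those of non-endocrine barcodes. The summed level of non-endocrine barcodes, taken as free RNA and subtracted, exceeded that of Ins1 in the control Gcg and Sst classes, so that no ratio of Ins1 can be given on that scale, and it turned the log2 ratio of Ins2 to 4.30 in the Gcg class and 1.51 in the Sst class. That subtraction rests on sums to which a few non-endocrine barcodes gave much insulin, up to 836 Ins1 UMIs per 10000 in the control. The median control barcode held 20.3 Ins1 UMIs per 10000 outside the members among non-endocrine barcodes and 24.5 in the Gcg class. No direction is therefore given for Ins1 or Ins2 in these classes. The control Sst class was alike, with Ins1 at 0.932 and Ins2 at 1.13 times the non-endocrine level. In the Gcg class, 0.134% of genes lay below the 2-fold limit, and in the Sst class, where Ins1 had -2.44 and Ins2 -0.70, 0.53%. Iapp in the Gcg class stood at 3667 and 4900 CPM, but the median barcode held 25 and 12 UMIs, so the higher sum rested on a minority of barcodes.

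The Ins1 share of summed UMIs was lower in the TBL/RβKO-labelled library in every class, free RNA included. It was 25.5% and 7.56% in the Gcg class, 25.5% and 9.32% in the Sst class, 25.9% and 9.05% in the Ppy class and 29.4% and 12.2% in non-endocrine barcodes, each in the control and the TBL/RβKO-labelled library. All classes of a library share its free RNA, so these shares are not independent. Over barcodes with 20 or more insulin UMIs, the TBL/RβKO-labelled 95th percentile was 22.7%, 23.1% and 25.5% in the Gcg, Sst and Ppy classes. The control 5th percentile was 19.6%, 19.8% and 19.1%, so barcodes of the libraries overlapped there. Gcg class barcodes of the TBL/RβKO-labelled library with 100 or more insulin UMIs per 10000 (90 of 1546) had an Ins1 share of 5.51%, while those with less (1456) had 12.3%, close to the 12.2% of non-endocrine barcodes. The corresponding control shares were 26.0% and 24.9%. In the Ppy class these shares were 8.71% and 14.0% in the TBL/RβKO-labelled library and 26.4% and 24.5% in the control.

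**Figure D5:**
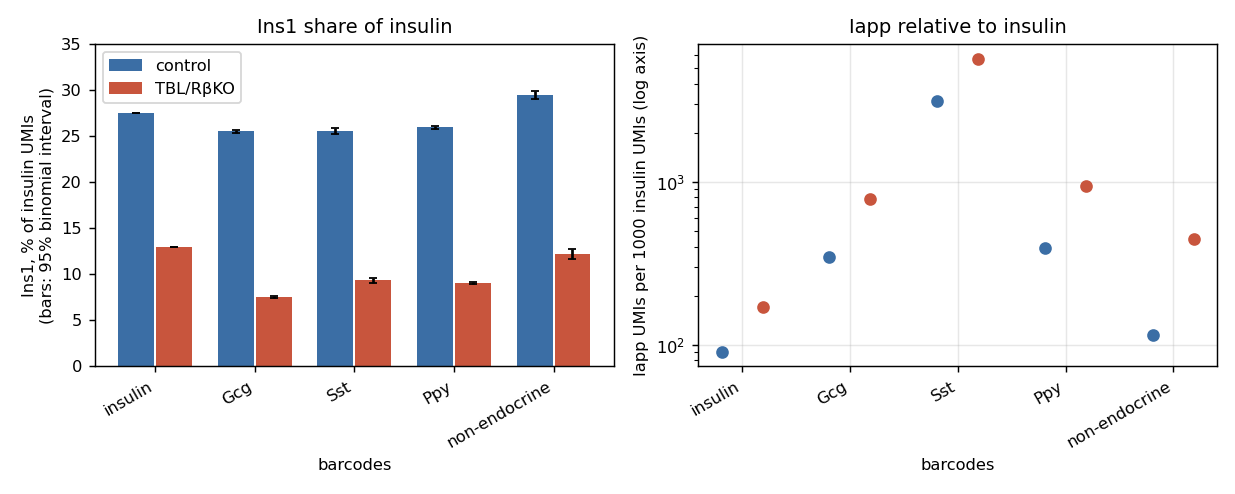
Left, Ins1 as a share of insulin UMIs (%) by class and library, with 95% binomial intervals. Right, Iapp UMIs per 1000 insulin UMIs (log axis). Control shares lie between 25.5% and 29.4% and those of the TBL/RβKO-labelled library between 7.56% and 12.9%, and Iapp per insulin is higher in the latter in each class. Outside the insulin class the denominator holds free insulin RNA, which was itself lower in the TBL/RβKO-labelled library.

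Cre transcripts, expressed from the Ins1 locus, were found in the TBL/RβKO-labelled library alone. It held 3247 Cre UMIs of the plus strand in 329 barcodes, and the control 0 UMIs in 7067 barcodes, which, with 3 counts as the limit that a count of 0 allows, leaves a share of barcodes with a Cre UMI of up to 0.0425%. In the insulin class, 274 of 1338 barcodes (20.5%, 18.3% to 22.7%) had a Cre UMI. These were deeper than the others, with a median of 81403 against 64693 UMIs. They held a median of 3123 insulin UMIs per 10000 against 2149, and their Ins1 share was 13.7% against 12.6%. Iapp stood at 51782 and 46219 CPM in barcodes with and without a Cre UMI. Depth moved with the presence of a Cre UMI, and its part in these differences was not tested.

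Of 15 transcription factors of the insulin genes, 13 were tested in the insulin class, and 1 was above and 1 below the 2-fold limit, beside 8.27% and 1.25% of all genes. The median log2 ratio of the list was 0.04, against 0.31 for all genes. Mafa, the factor of mature β-cells that binds insulin promoters, stood at 463 and 85.5 CPM, a log2 ratio of -2.44 (-2.47 to -2.41). Pdx1, a homeodomain factor that activates Ins1, Ins2 and Iapp, stood at 114 and 81.3 CPM (-0.49), and Nkx6-1 at 189 and 115 CPM (-0.71). Glis3, a zinc finger factor of insulin transcription, stood at 137 and 405 CPM (1.57), and Neurod1 at 132 and 248 CPM (0.91). Pax6 stood at 169 and 198 CPM (0.23). Without hormones and mitochondrial genes in the total, Mafa, Nkx6-1 and Pdx1 lay below the limit (-2.96, -1.23 and -1.01) and Glis3 above it (1.05). Of all genes 3.44% lay below and 3.2% above on that scale, and Pdx1 was only just past the limit.

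Genes of prohormone processing and storage were all tested, 14 of 14, with 5 above and 3 below the limit, beside 8.27% and 1.25% of all genes, and a median log2 ratio of 0.35. Slc30a8, which carries zinc into insulin granules, stood at 607 and 180 CPM (-1.76). Ero1b, an oxidase that forms the disulphide bonds of proinsulin, stood at 813 and 348 CPM (-1.22). Vgf, a granule protein, stood at 13.2 and 6.45 CPM (-1.03). Of the granule proteins, Chga stood at 5144 and 12428 CPM (1.27) and Chgb at 784 and 4551 CPM (2.54), while Pcsk1n, an inhibitor of Pcsk1, had 1.44, Pam, the enzyme that amidates Iapp, 1.09 and P4hb, a disulphide isomerase, 1.01. Without hormones and mitochondrial genes in the total, 1 gene of the list, Chgb, lay above the limit and 4 lay below it, the fourth being Scg3, a granule protein (-1.02), beside 3.2% and 3.44% of all genes. The convertases Pcsk1 and Pcsk2 had 0.07 and 0.43, and Scg2 of the same list had 0.27. Of 8 genes of insulin and amylin reception and breakdown 5 were tested and 0 passed either limit, with 0.44 for the insulin receptor Insr and 0.36 for Ide, the protease that degrades both peptides. Igf1r and Igf2r of the same list had 0.81 and 0.18. Calcr, the core of the amylin receptor, had 1 and 12 UMIs.

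Across the 10 sums of class and library, where barcodes of no class were a class of their own, the genes most like each member were ranked by Pearson's r of log2(CPM + 1), over 11416 genes. Slc2a2, the β-cell glucose transporter, was closest to Ins1 (0.98), followed by Car10 and Sytl4 (both 0.95), and Ins2 had 0.95. Tmem215, Prss53 and G6pc2 were closest to Ins2 (0.97 each). Wfs1 and Pdx1 (both 0.99) and Frzb (0.98) were closest to Iapp, for which Ins1 had 0.57 and Ins2 0.68. These sums share 2 libraries and their free RNA, so r is a description here.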

How the data were processed

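Islet cells of 2 libraries, 1 per group, were analysed from the matrices that the authors deposited, which hold raw UMI counts per gene and barcode. Per the labels, the authors' processing used Cell Ranger 7.1.0 and the builds GRCm39 and mm39, and the role of each is not given in the sources used here. Barcodes went down to 500 UMIs, so that no limit on genes had been applied.

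Barcodes with more than 2500 genes and under 10% mitochondrial UMIs were kept, with no upper limit on genes, since the study's limit of 6000 leaves out 49.5% of control insulin class barcodes and 76.7% of those of the TBL/RβKO-labelled library. UMIs were summed by library and hormone class. Genes at 10 CPM or more in either sum were tested against a 2-fold limit, with no p-value. Non-endocrine barcodes (131 and 207) held 50 or more UMIs per 10000 of 19 immune, vascular, stromal and ductal markers, whatever their class. They gave the level of free RNA, and 44 and 3 of them were in the insulin class. Doublets were not removed. Scrublet (scanpy 1.11.5, barcodes with over 500 genes) marked 125 of 6486 control barcodes (1.93%) and 2 of 5346 (0.0374%) of the other library, where it had not worked. An alternative left out the highest scores, at 0.8% per 1000 barcodes (336 and 231 barcodes).

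The members, the gene lists and the rules were chosen with earlier results of these data known. The text names the 3 members, the 3 genes most like each member and the listed genes past the 2-fold limit. It also names the 3 genes of each list with the highest control CPM in the insulin class, and the best known of the others. Positions come from the GENCODE annotation (M39) of GRCm39 by Ensembl identifier, and promoters from RefSeq, which held a window for 2 of the 3 members. The computation of the ratio and its interval was checked on simulated Poisson counts with 200 changed genes. Those counts follow the model that the interval assumes, so the check says nothing about spread between mice, barcodes or libraries. Software was Python 3.11.15, numpy 2.4.6, scipy 1.17.1, pandas 2.3.3 and matplotlib 3.10.9.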

Additional observations from a re-analysis of the deposited data

Results flagged for a closer look

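Ins2 in the Ppy class had a log2 ratio of 0.34 between the TBL/RβKO-labelled library and the control, of opposite sign to the -0.57 of the insulin class, the -0.47 of the Gcg class and the -0.70 of the Sst class. The difference between classes was not tested, and the median barcode of the Ppy class gave -1.64. With free RNA subtracted, Ins2 was higher in the Ppy, Gcg and Sst classes alike (1.35, 4.30 and 1.51), so the opposite sign against the Gcg and Sst classes was no longer present. Iapp in the Sst class had -0.12, where the insulin, Gcg and Ppy classes had 0.08, 0.42 and 1.31. That difference was not tested either, and the insulin class turned to -0.44 without hormones and mitochondrial genes in the total. The Gcg class turned to -0.54 with barcodes under 6000 genes, -0.51 with barcodes of a single hormone and -0.87 with medians. In both cases 1 library stood for each group.

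Barcodes outside the filter, which no comparison of the report used, held more Iapp in the TBL/RβKO-labelled library than in the control. In barcodes of 2500 genes or fewer (1335 against 2017) Iapp stood at 10417 CPM against 9687 CPM, and in barcodes with more genes and 10% or more mitochondrial UMIs (319 against 303) at 11168 CPM against 8243 CPM. Ins1 was lower in the same barcodes, at 10578 against 39406 CPM in the first group and 5393 against 26019 CPM in the other, and the Ins1 share of insulin was 14.1% against 26.2% and 12.4% against 24.2%.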

How the results depend on the processing

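No paired analysis was possible because each group had 1 library and the groups shared 1 replicate number only. Counting intervals are narrow at this depth, so nearly every alternative moved a value beyond its interval. Over the 9 alternatives the log2 ratio of Ins1 in the insulin class kept its sign in 9, that of Ins2 in 8 and that of Iapp in 7. Limiting the class to barcodes under 6000 genes gave -1.51 for Ins1, -0.23 for Ins2 and 0.19 for Iapp, Ins1 shares of 27.8% and 13.7% (control and TBL/RβKO-labelled library, as in each pair here) and 79.4 and 127 Iapp UMIs per 1000 insulin UMIs. A class limit of 300 gave -0.57 for Ins2, 0.078 for Iapp and 170 Iapp per 1000 insulin in the TBL/RβKO-labelled library. Barcodes of a single hormone gave -1.32, -0.16 and 0.071, shares of 27.7% and 14.7%, and 86.2 and 120 per 1000. Leaving hormones and mitochondrial genes out of the total gave -2.44, -1.09 and -0.44. Leaving out the highest doublet scores gave -0.57 for Ins2 and 0.075 for Iapp, shares of 27.6% and 13.0%, and 89.9 and 169 per 1000. Subtracting free RNA gave -1.92 for Ins1 and 0.071 for Iapp, a control share of 27.5%, and 90.4 and 169 per 1000. Medians over barcodes gave -2.46, -0.80 and -0.017, shares of 27.7% and 11.6%, and 84.7 and 175 per 1000. Without non-endocrine barcodes the ratios were -1.93, -0.57 and 0.078. Barcodes at 4000 or more insulin UMIs per 10000 (2286 and 323, chosen after seeing the data) gave -0.98 for Ins1, 0.11 for Ins2 and 0.18 for Iapp, shares of 27.5% and 15.2%, and 86.4 and 106.5 per 1000. In that set Ins1 was no longer past the 2-fold limit and Ins2 changed sign. The rule selects on Ins1 plus Ins2 and so limits how far their sum can differ, without making it equal. The cause of the shifts was not tested. The count of genes past 2-fold was 754, or 5188 with no filter on low values, where genes of few UMIs enter, and between 525 and 815 under the other alternatives. The split was 655 higher to 99 lower, or 253 to 272 without hormones and mitochondrial genes in the total.

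In the other classes Ins1 was lower in the TBL/RβKO-labelled library under the alternatives that gave a value. The smallest difference was -0.14, in the Ppy class with free RNA subtracted. In the Gcg and Sst classes that subtraction gave no value, since control Ins1 lay at 0.839 and 0.932 times the non-endocrine level. In the TBL/RβKO-labelled library it lay at 1.39 and 1.64 times that level, so the direction of Ins1 in these classes is not settled. The sign of Ins2 in the Ppy class held in 4 of 7 alternatives, with values from -1.64 to 1.35. The sign of Ins2 held in 6 of 7 in the Gcg class (-2.16 to 4.30) and in 6 of 7 in the Sst class (-2.30 to 1.51), and in both it turned past the 2-fold limit upwards with free RNA subtracted, where the summed level of non-endocrine barcodes was close to that of the class in the control. The sign of Iapp in the Gcg class held in 4 of 7, from -0.87 to 0.60. Iapp in the Ppy class lay between 0.89 and 1.83 and in the Sst class between -0.18 and -0.11.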
